A study of Mus musculus with 6 samples.

Results

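Complement genes were examined in thoracic aorta of mice lacking Ndst1 in smooth muscle (NDST) and of wild-type mice (WT). The set comprised 9 genes, taken by the gene symbol of the platform annotation: C1qa, C1qb, C1qc, C1ra, C3, C4b, Cfb, Serping1 and Cd55. Of these, 8 had a named probe, 12 probes in all, among 19057 named genes and 45281 probes on the array, and C3 was not analysed here. The NDST group was 3 arrays of SM22αCre+Ndst-/- mice and the WT group 3 arrays of SM22αCre-Ndstwt/wt mice. All were male C57Bl/6 animals of 3 to 4 months. Ndst1 encodes an enzyme that sulfates heparan sulfate chains in the Golgi. Cre was driven by the SM22α promoter, which is active in smooth muscle and, in the embryo, in heart muscle. Cre was absent from the WT group, and its own effect cannot be told apart from that of losing Ndst1. Whether each array stands for a different mouse is not stated in the labels, and the tests rest on the spread between arrays, which may be technical.

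Complement is a cascade of plasma and cell-surface proteins that tags and lyses targets. In the classical pathway C1q, made largely by macrophages, binds a target and activates the proteases C1r and C1s, which cleave C4 and C2. In the alternative pathway factor B forms the convertase, while C1 inhibitor and decay-accelerating factor hold the cascade in check. C4 and factor B are acute phase proteins made mostly in liver, and fibroblasts, smooth muscle cells and macrophages make some of them locally.

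Of the 3 C4b probes only 1 passed the threshold, 2.34-fold lower in NDST arrays, a size that varied with the processing. It ranked last in mean brightness over all 6 arrays, though not in the WT arrays alone. The brightest read 1.24-fold lower without passing. All 3 lay lower on every NDST array, as did 16.3% of all probes tested. The 3 C1q genes were detected on every array and did not pass. Serping1 read 1.19-fold higher in NDST arrays without passing. Of the 9 genes 7 could be tested, with 10 probes detected on at least 3 of 6 arrays (detection p under 0.05). By the brightest probe of each gene none of the 7 passed an adjusted p of 0.05 (limma with Benjamini-Hochberg adjustment over 17954 probes), and 2 had an unadjusted p under 0.05, Serping1 and C4b. Of all 10077 genes tested 7.35% passed, 4.61% higher and 2.74% lower in NDST, and 26% had an unadjusted p under 0.05. Counted by any probe, 1 of the 7 passed, C4b, against 9.8% of all genes. Counted over probes, 1 of 10 passed, against 7.44% of all probes tested (4.32% higher and 3.12% lower). The median difference of the 7 genes was 0.02 in log2 (range -0.30 to 0.25), against 0.00 over all genes tested. All differences below are log2 values of the background-corrected, normalized intensity, NDST minus WT, with limma's standard error and n = 3 arrays per genotype.

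**Figure D1:**
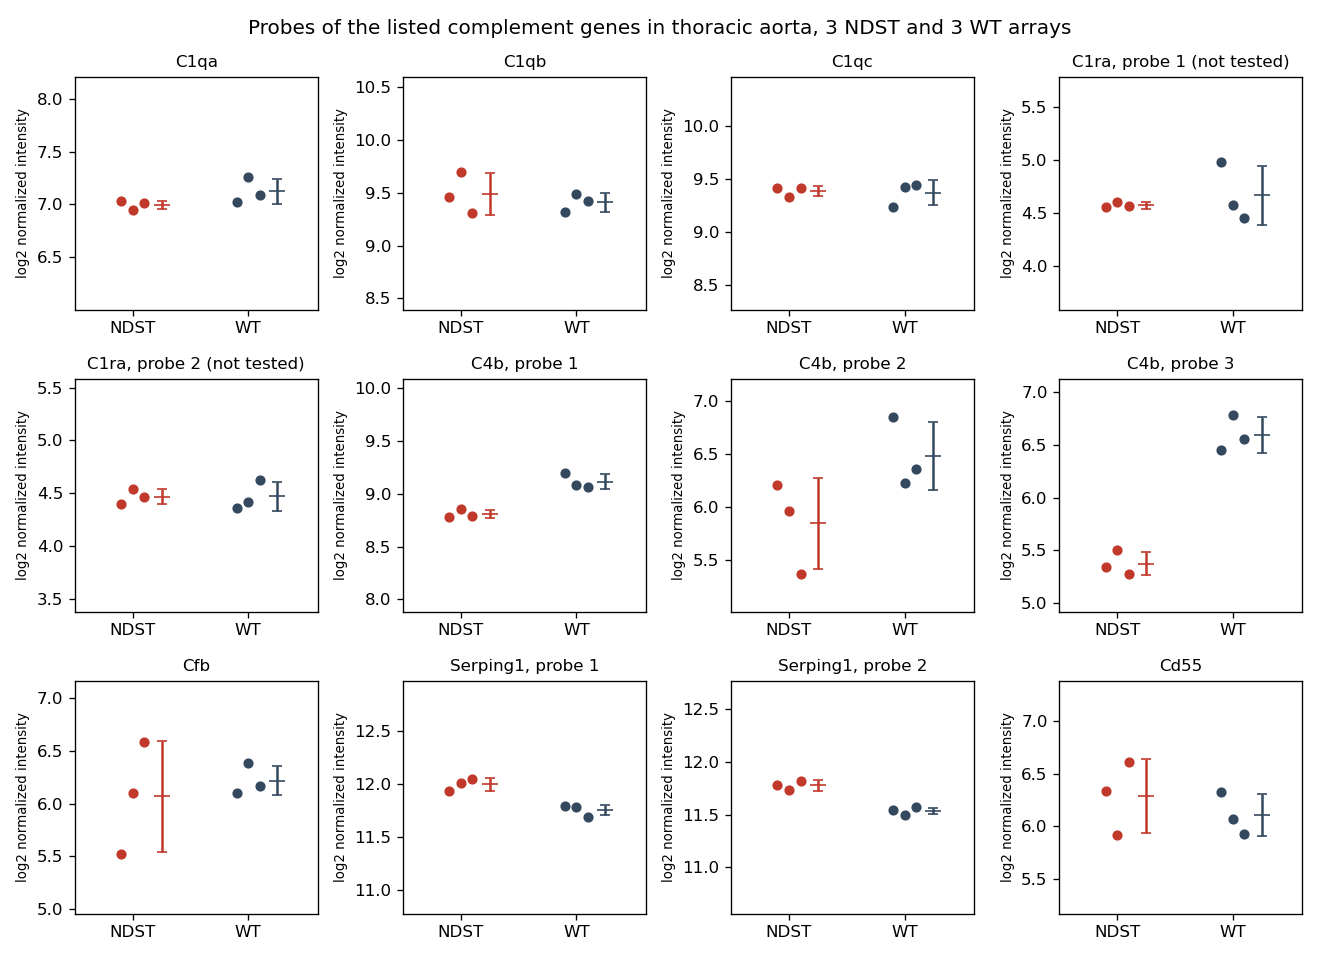
Log2 normalized intensity (vertical axis, each panel spanning the same range) of the 12 probes of the listed complement genes on 3 NDST and 3 WT arrays. Points are arrays and bars the mean ± SD of a genotype. The genotypes do not overlap on the 3 probes of C4b and the 2 of Serping1, and overlap on the others.

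C1qa, C1qb and C1qc encode the A, B and C chains of C1q. In the RefSeq order of GRCm38.p6 the 3 genes follow each other with no other protein-coding gene between them. The windows from 250 bases before to 50 bases after the start of C1qb and C1qc are shown because these neighbours were detected on every array and both stood near 0, while interferon-gamma inducible and acute phase genes differed in the same arrays. The RefSeq table held such a window for 5 of the 9 genes. The C1qb window is chr4:136886151-136886450 and the C1qc window chr4:136892865-136893164, both on the minus strand of GRCm38.p6 and printed 5′ to 3′ along the gene. Capitals mark matches, on either strand, to any of 4 motifs. These were GAGGAA (the core bound by PU.1, a myeloid factor), TTNNGNAA (C/EBP), TTCNNNGAA (the gamma-activated site bound by STAT proteins) and the interferon-stimulated response element (GAAA, 2 bases of any kind, GAAA).
C1qb: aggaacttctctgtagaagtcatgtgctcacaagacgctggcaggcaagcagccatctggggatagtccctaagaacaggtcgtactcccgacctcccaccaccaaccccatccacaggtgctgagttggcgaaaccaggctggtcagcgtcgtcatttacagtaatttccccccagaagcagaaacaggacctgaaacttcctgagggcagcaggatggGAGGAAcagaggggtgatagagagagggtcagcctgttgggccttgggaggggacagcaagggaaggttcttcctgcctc
C1qc: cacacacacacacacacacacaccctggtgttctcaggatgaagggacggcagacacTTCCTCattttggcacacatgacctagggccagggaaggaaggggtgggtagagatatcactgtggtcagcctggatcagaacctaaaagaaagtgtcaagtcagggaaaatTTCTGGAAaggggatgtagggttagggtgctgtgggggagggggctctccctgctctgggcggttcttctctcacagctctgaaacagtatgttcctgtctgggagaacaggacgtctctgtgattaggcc
Each window held 1 match to GAGGAA, which begins at base -30 of C1qb and, on the opposite strand, at base -193 of C1qc, with the start of the gene as base 0, and 28.3% of all 32851 windows hold one. The C/EBP letters matched once in C1qc, from base -81 (40.7% of all windows), and not in C1qb. Neither window holds the STAT letters (8.3% of all windows) or the interferon-stimulated element (3.44%), and no match overlapped another. As few windows hold either, their absence is usual, and whether any motif bears on the C1q values was not tested.

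C1qb had log2 values of 9.46, 9.70 and 9.31 in NDST arrays, against 9.32, 9.49 and 9.42 in WT arrays. The groups overlapped and the highest value was an NDST array. The difference was 0.08 ± 0.12 (95% interval -0.19 to 0.35, limma adjusted p = 0.719). C1qc had 9.42, 9.33 and 9.42 in NDST arrays, against 9.24, 9.43 and 9.45 in WT arrays, a difference of 0.02 ± 0.09 (-0.19 to 0.22, adjusted p = 0.927). C1qa had 7.03, 6.95 and 7.01 in NDST arrays, against 7.02, 7.26 and 7.09 in WT arrays. Here too the groups overlapped, with a difference of -0.12 ± 0.09 (-0.33 to 0.08, adjusted p = 0.423). A change of more than 0.35 in either direction lay outside all 3 intervals. None of the 3 passed under any of 17 alternatives, although their sign was not stable: C1qa ranged from -0.17 to 0.06, C1qb from -0.03 to 0.19 and C1qc from -0.05 to 0.12. In bulk tissue, fewer cells of a type and less RNA per cell cannot be told apart.

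Macrophage markers were measured beside C1q. Of 20 listed, 17 were tested and none passed with limma (7 had an unadjusted p under 0.05, median 0.12, range -0.52 to 0.37). Over all genes tested, 7.35% passed and 26% had an unadjusted p under 0.05. The summed linear intensity of the 17 was 6931 to 7172 in NDST arrays and 6586 to 6792 in WT arrays. The 3 with the smallest p went both ways. The hyaluronan receptor Lyve1 stood at 0.37 ± 0.11 (adjusted p = 0.083), the haemoglobin scavenger receptor Cd163 at -0.33 ± 0.11 (0.123) and the lysosomal protease Ctss at -0.37 ± 0.13 (0.126). The markers Fcgr1 and Msr1 were not detected on enough arrays.

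Of the proteases that C1q activates, C1r could not be tested. Its gene C1ra had 2 probes and neither was tested. Its brighter probe read 129, 131 and 136 intensity units in NDST arrays, against 137, 131 and 126 in WT arrays, where the median of all probes was 130.0 to 141.5. It was detected on 1 WT array only, with a detection p of 0.0406, and its other probe on none. No level or difference of C1ra was therefore available at this signal over background. C1s1, which encodes C1s, was detected on all 6 arrays and stood at -0.07 ± 0.08 (-0.25 to 0.11, adjusted p = 0.634) and -0.09 with its other probe. C1s2, a second C1s gene, stood at 0.04 ± 0.13 and at 0.17 with its other tested probe. C1rl, a C1r-like protease, stood at -0.11 ± 0.16 and -0.41 (adjusted p = 0.177) on its 2 probes. Because C1ra and C1rb, and C1s1 and C1s2, are near copies, their probes may share signal.

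C4b encodes complement C4, the substrate of C1s that forms the classical convertase with C2. The array holds 3 probes named for it, numbered here by mean brightness over all 6 arrays. On all 3 every NDST array lay below every WT array. By brightest probe 2 of the 7 genes had groups that did not overlap, C4b with NDST below and Serping1 with NDST above, against 34.1% of all genes (16.1% below and 18% above). The brightest C4b probe had 8.78, 8.86 and 8.79 in NDST arrays, against 9.20, 9.08 and 9.06 in WT arrays. Its difference was -0.30 ± 0.08 (-0.48 to -0.13), or 1.24-fold lower, and its adjusted p of 0.0565 missed the threshold. The second probe had 6.21, 5.96 and 5.37 in NDST arrays, against 6.85, 6.23 and 6.36 in WT arrays (-0.63 ± 0.24, adjusted p = 0.163). Its spread between arrays of a genotype was 0.43 in NDST and 0.32 in WT (SD).

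The third C4b probe was the one that passed. It had 5.34, 5.50 and 5.28 in NDST arrays, against 6.45, 6.78 and 6.56 in WT arrays, and the gap between the genotypes was several times the SD of 0.11 and 0.17. The difference was -1.23 ± 0.11 (-1.49 to -0.97, adjusted p = 0.00181), or 2.34-fold lower. Of genes with several tested probes, 14.6% had at least 1 that passed. This probe was dim, at 153, 159 and 159 intensity units in NDST arrays against 189, 216 and 201 in WT arrays, and detected on all 6. Its low NDST values set its rank, as its WT mean of 6.60 lay above the 6.48 of the second probe. Its size varied with the processing: it was -0.45 without background correction, -0.80 with an offset of 50, and -0.43 in the authors' processed values. It passed under all 16 alternatives that were fitted per probe (adjusted p 3.96e-06 to 0.0147). The brightest probe passed under 5 of those 16 and, as the mean of the 3 probes, at -0.72 (adjusted p = 0.0102). The intervals of the brightest and the third probe do not overlap, and the difference between the probes was not tested.

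C4a, listed among the other complement genes, is the neighbouring copy of C4b. It is known in mouse as sex-limited protein, and RefSeq annotates it as a transcribed pseudogene in GRCm38.p6. Its brighter probe had 9.33, 9.31 and 9.39 in NDST arrays, against 10.03, 9.98 and 10.05 in WT arrays. The values within a genotype differed by less than 0.1, and the difference was -0.68 ± 0.07 (adjusted p = 0.00344), or 1.6-fold lower. The second probe fell by 0.60 (adjusted p = 0.0133), and its other probe was detected on no array. The brighter C4a probe passed under all 16 alternatives fitted per probe, with differences of -0.70 to -0.58. Because C4a and C4b are near-identical, how far each probe reads the other gene is not known here, and the 2 transcripts cannot be told apart. Of the 5 C4 probes tested, which come from near-identical genes, all 5 were lower on every NDST array and 3 passed. Over all probes, 32.4% had groups that did not overlap (16.3% with NDST below) and 7.44% passed (3.12% lower).

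C4b, C4a, Cfb and C2 lie in the class III region of the major histocompatibility complex, and in RefSeq order Cyp21a1, Stk19, Dxo, Skiv2l and Nelfe stand between them. In this stretch and its nearest neighbours, 19 probes of 9 other genes were tested and none passed with limma (1 had an unadjusted p under 0.05, range -0.36 to 0.14). As 7.44% of all probes passed, and 3.12% lower, a count of 0 of 19 is near that share, and no difference between C4 and its neighbours was tested. The lowest was 1 of 3 probes of the nuclear protein gene Stk19 (-0.36 ± 0.15, adjusted p = 0.189). C2, the protease of the classical convertase, stood at -0.02 ± 0.08 (-0.20 to 0.16, adjusted p = 0.896).

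**Figure D2:**
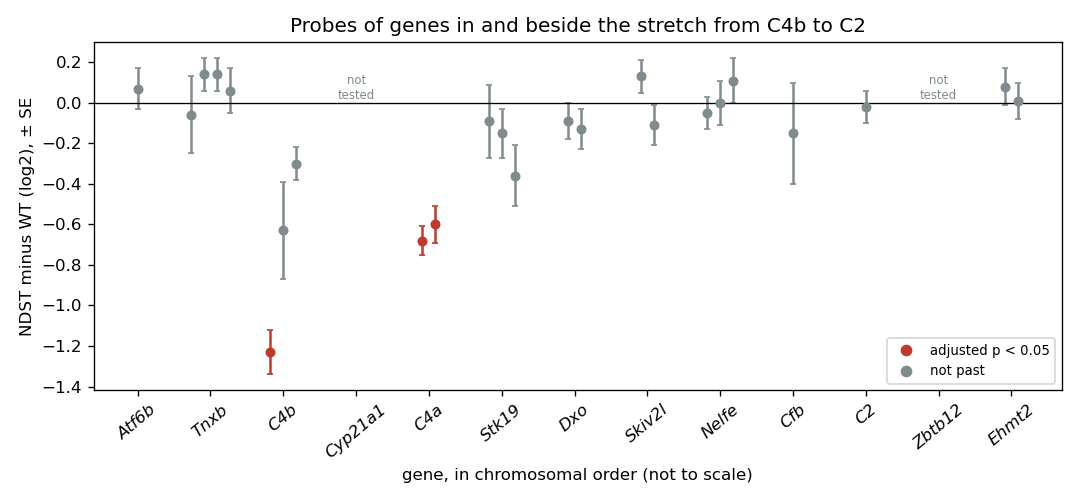
Difference, NDST minus WT, in log2 ± SE for each tested probe (vertical axis), with genes in chromosomal order from Atf6b to Ehmt2 (horizontal axis, not to scale). The 3 red points, 1 probe of C4b and 2 of C4a, passed the threshold, and the 19 probes of the other genes lie between -0.36 and 0.14.

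Cfb encodes factor B, the protease of the alternative convertase. It had 5.52, 6.10 and 6.58 in NDST arrays, against 6.10, 6.38 and 6.17 in WT arrays. Both the lowest and the highest value were NDST arrays, and their SD was 0.53 in NDST and 0.14 in WT. The difference was -0.15 ± 0.25 (adjusted p = 0.751), and its interval of -0.74 to 0.44 covered a decrease as large as that of C4a as well as an increase. Over 17 alternatives it ranged from -0.41 to 0.12 and never passed. Cfp, which encodes properdin, the stabilizer of that convertase, was higher on every NDST array (0.15 ± 0.07, -0.02 to 0.31) but did not pass (adjusted p = 0.241).

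The set held 2 regulators of the cascade. Serping1 encodes C1 inhibitor, which inactivates C1r and C1s. Its first probe had 11.94, 12.01 and 12.05 in NDST arrays, against 11.79, 11.78 and 11.69 in WT arrays. Its second probe had 11.78, 11.73 and 11.82 in NDST arrays, against 11.54, 11.50 and 11.57 in WT arrays. On both probes every NDST array lay above every WT array. The differences were 0.25 ± 0.07 (0.07 to 0.42, adjusted p = 0.0885) and 0.24 ± 0.07 (0.07 to 0.41, adjusted p = 0.0856), or 1.19-fold and 1.18-fold. Before normalization the first probe read 4054, 4334 and 4371 intensity units in NDST arrays, against 3585, 3632 and 3368 in WT arrays. The first probe stayed positive under all 16 alternatives fitted per probe (0.12 to 0.28) and passed under 4 of them, at adjusted p 0.00129 to 0.0479. The mean of both probes stood at 0.25 (adjusted p = 0.0531). In the authors' processed values it was lowest, at 0.12 (adjusted p = 0.154). Cd55 encodes decay-accelerating factor, which dissociates the convertases on the cell surface. It had 6.34, 5.92 and 6.61 in NDST arrays, against 6.33, 6.07 and 5.93 in WT arrays. The groups overlapped and the difference was 0.18 ± 0.19 (-0.26 to 0.62, adjusted p = 0.596).

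Beyond the set, 45 other complement genes were listed, 42 had a named probe and 19 were tested. Of these 2 were higher and 2 lower past the threshold, with a median of -0.07 (7.35% of all genes passed). The count includes Masp1, whose probe entered the test only through the NDST arrays, so 3 of the calls were of genes detected in both genotypes. The lower ones were C4a and Cd59b, and the higher ones Cd93 and Masp1. Cd59b, 1 of 2 mouse genes for the inhibitor of the membrane attack complex, had 9.15, 9.20 and 9.15 in NDST arrays, against 9.63, 9.60 and 9.67 in WT arrays (-0.47 ± 0.07, adjusted p = 0.0133). Its dimmer probe stood at -0.14, and its paralog Cd59a at -0.13 ± 0.08 (adjusted p = 0.325). Cd59b lost the call under 3 of 16 alternatives, among them those without NDST replicate 1 or 3 (adjusted p up to 0.0653), and with its probes averaged (-0.30, adjusted p = 0.0683). Its near copy may share its signal.

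Cd93, an endothelial and myeloid surface protein once described as a C1q receptor, had 9.66, 9.80 and 9.81 in NDST arrays, against 9.38, 9.29 and 9.26 in WT arrays. The difference was 0.44 ± 0.08 (adjusted p = 0.0257), and 0.26 with its other probe. It lost the call under 6 of 16 alternatives (adjusted p up to 0.0868), 5 of which left out 1 array: any WT array, or NDST replicate 2 or 3. With its probes averaged it stood at 0.35 and did not pass (adjusted p = 0.0566). Endothelial markers were measured beside it: 1 of 9 tested passed, higher (Vwf, 0.45 ± 0.09), which is near the 7.35% of all genes that passed. Their median was 0.21 (range -0.13 to 0.45). Their summed intensity was 9277 to 9527 in NDST arrays and 8060 to 8651 in WT arrays. The part of these cells in the Cd93 value was not tested. Masp1, a protease of the lectin pathway, had 3 probes, of which 1 was tested. That probe was detected on all 3 NDST arrays and on no WT array (mean 5.01 and 4.39). Another was detected on 2 NDST arrays and no WT array, and the remaining one on no array (mean 4.38 in NDST and 4.51 in WT). The tested probe passed (adjusted p = 0.0051), but as it entered the test only through the NDST arrays the change is given as a bound of at least 1.03-fold higher.

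The rest of the complement genes tested did not pass. In the terminal pathway C7, C8b and C8g were tested and stood at 0.23, 0.02 and -0.23, with the other tested probe of C7 at -0.07. C6, C8a, C9 and Hc, which encodes C5, were not detected on enough arrays. Of the lectin pathway Fcna (-0.20 ± 0.11) and Colec11 (0.21 ± 0.12) did not pass. The receptors C3ar1, C5ar1, C5ar2, Cr2, Itgam, Itgax and Itgb2 were not detected on enough arrays, and Vsig4 stood at -0.15 ± 0.15. Among regulators Cr1l, the rodent membrane regulator Crry, stood at -0.09 ± 0.09 (-0.21 with its other tested probe) and Vtn (vitronectin) at 0.38 ± 0.18. C1qbp, a mostly mitochondrial protein that binds C1q, stood at -0.38 ± 0.09 (adjusted p = 0.0528). C1qbp was lower on every NDST array and passed under 6 of 17 alternatives.

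**Figure D3:**
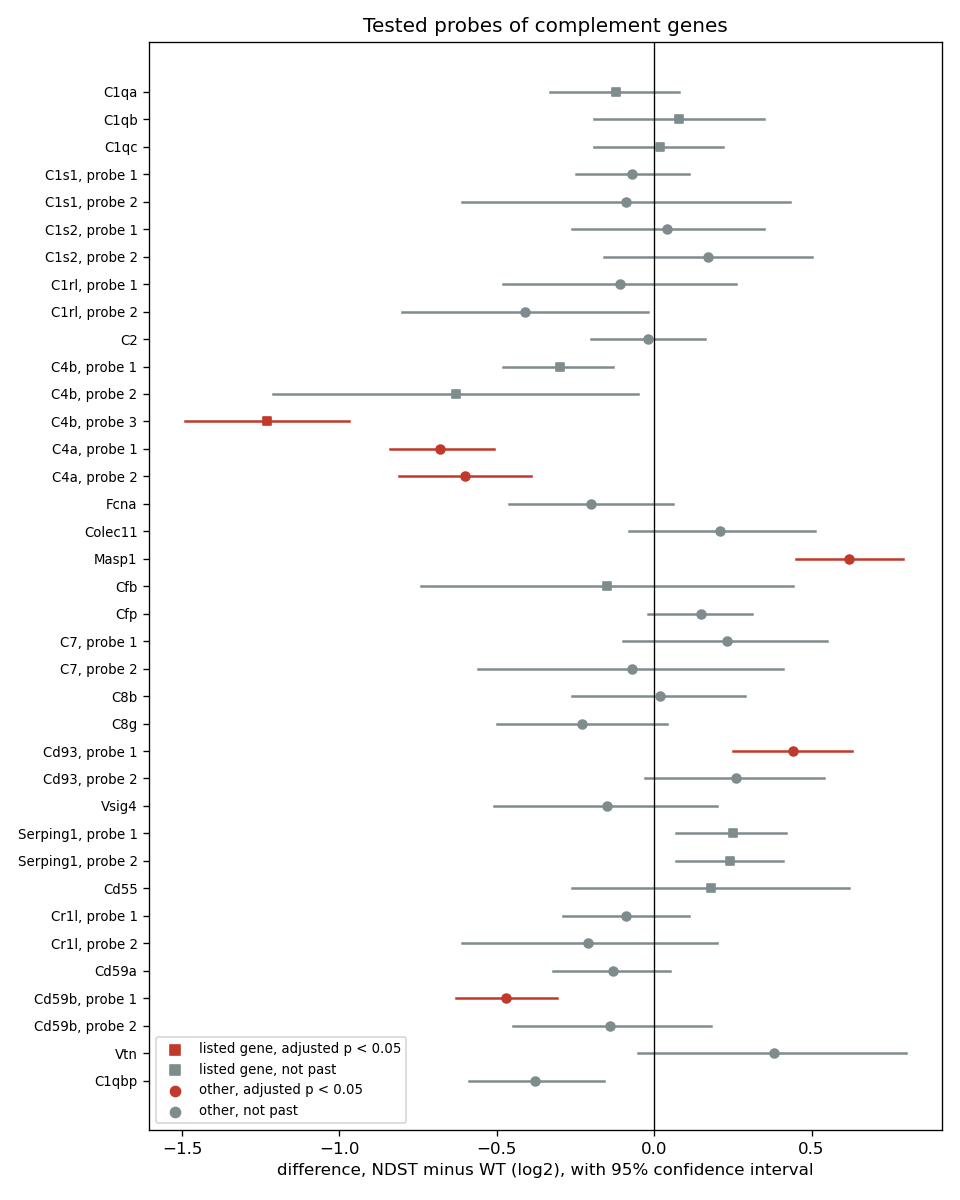
Difference, NDST minus WT, in log2 (horizontal axis) with its 95% confidence interval for every tested probe of complement genes, ordered by pathway. Squares are the listed genes and circles other complement genes, and red marks an adjusted p under 0.05 (Masp1 is drawn at its fitted value). The C1q chains lie near 0, the 5 C4 probes below 0 and both Serping1 probes above 0.

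Groups of genes that can move together with complement were measured in the same arrays. The lists were chosen with earlier results of these data known. Over all genes tested, 4.61% passed higher and 2.74% lower. Of 15 tested acute phase genes 8 were lower and none higher (median -0.49), and their summed intensity was 15492 to 16112 in NDST arrays and 24241 to 25877 in WT arrays. Among them the protease inhibitor Serpina3n stood at -1.93 ± 0.09, Lcn2, an iron-carrier binding protein, at -1.84 ± 0.10, and the serum amyloid Saa3 was detected on no NDST array and at least 4.99-fold lower. Of 17 interferon-gamma inducible genes 12 were higher, 11 of them detected in both genotypes, and none lower (median 0.56), with summed intensities of 12092 to 12830 in NDST arrays and 8063 to 8541 in WT arrays. The GTPases Igtp (1.53 ± 0.09), Irgm2 (1.17 ± 0.08) and Gbp3 (1.14 ± 0.08) had the smallest p. Of 13 adventitial fibroblast markers 10 were higher (median 0.41, led by Pi16 at 0.67 ± 0.08, Fbln1 and Serpinf1), with summed intensities of 26957 to 27427 in NDST arrays and 20319 to 20859 in WT arrays. The part of each of these in the C4 and Serping1 values was not tested. Hepatocyte markers, read because liver is the main source of C4, included 2 higher of 6 tested, Apoa1 (1.05 ± 0.10) and Fgg (detected on no WT array, at least 1.15-fold), while Alb, which encodes albumin, was not detected on enough arrays.

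**Figure D4:**
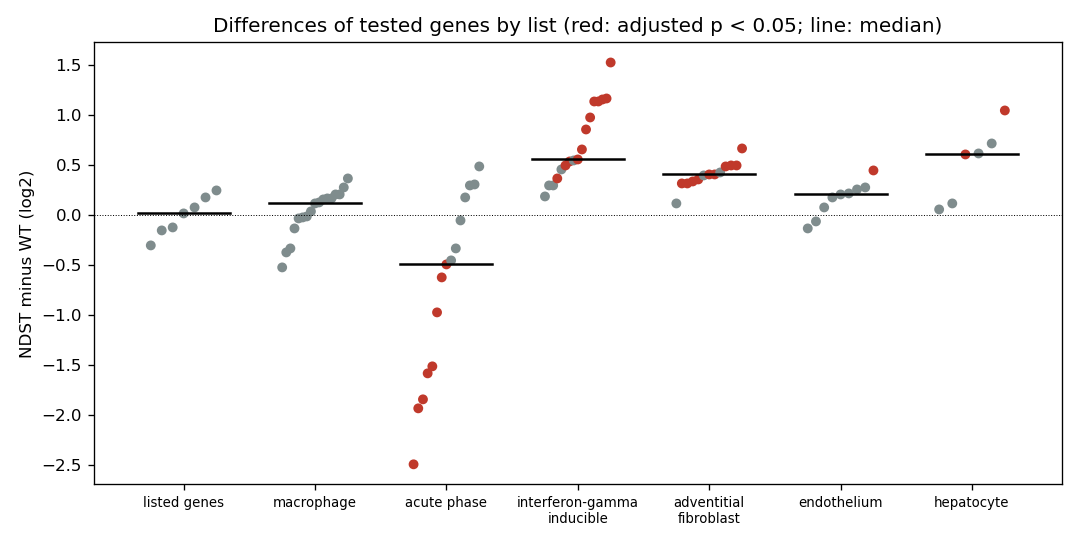
Difference, NDST minus WT, in log2 (vertical axis) of each tested gene by list. Red points passed an adjusted p of 0.05, lines are medians, and Saa3, Gbp5 and Fgg, each detected in 1 genotype only, are drawn at their fitted values. The medians are 0.02 for the listed complement genes, 0.12 for macrophage, -0.49 for acute phase, 0.56 for interferon-gamma inducible, 0.41 for fibroblast, 0.21 for endothelial and 0.61 for hepatocyte genes.

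All 9 smooth muscle markers were tested, with a median of 0.02 (range -0.31 to 0.31). Of these 1 passed, Lmod1, lower in NDST arrays (-0.31 ± 0.07, limma adjusted p = 0.0472). Next by p, Des (0.31 ± 0.10) and Smtn (-0.17 ± 0.07) went both ways without passing. Acta2 and Myh11 stood at 0.02 and 0.04. Markers of heart muscle (10 of 10 higher, median 3.36), neutrophils (5 of 8 higher) and airway epithelium (2 higher and 1 lower of 3) also differed. Over all genes tested, 4.61% were higher and 2.74% lower past the threshold. The summed intensity of the heart muscle markers was 17197 to 17920 in NDST arrays and 1557 to 1597 in WT arrays. The part of heart muscle, neutrophils or airway in the complement values was not tested. Of the 5 neutrophil genes, Camp (at least 2.7-fold higher) and Ngp (at least 1.97-fold higher) were detected on no WT array, which leaves 3 detected in both genotypes. None passed among 8 white adipocyte, 7 brown adipocyte and 6 lymphocyte markers with limma (2, 2 and 0 at an unadjusted p under 0.05). Of the genes outside the set, those whose centred values over the 6 arrays lay closest to the C4b probe that passed were Lncbate10, Depp1 and Sik1, with root mean square differences of 0.07, 0.10 and 0.14 in log2. They were picked for this closeness over the same arrays, so their differences of -1.27, -1.08 and -1.11 had to lie near that of the probe.

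**Figure D5:**
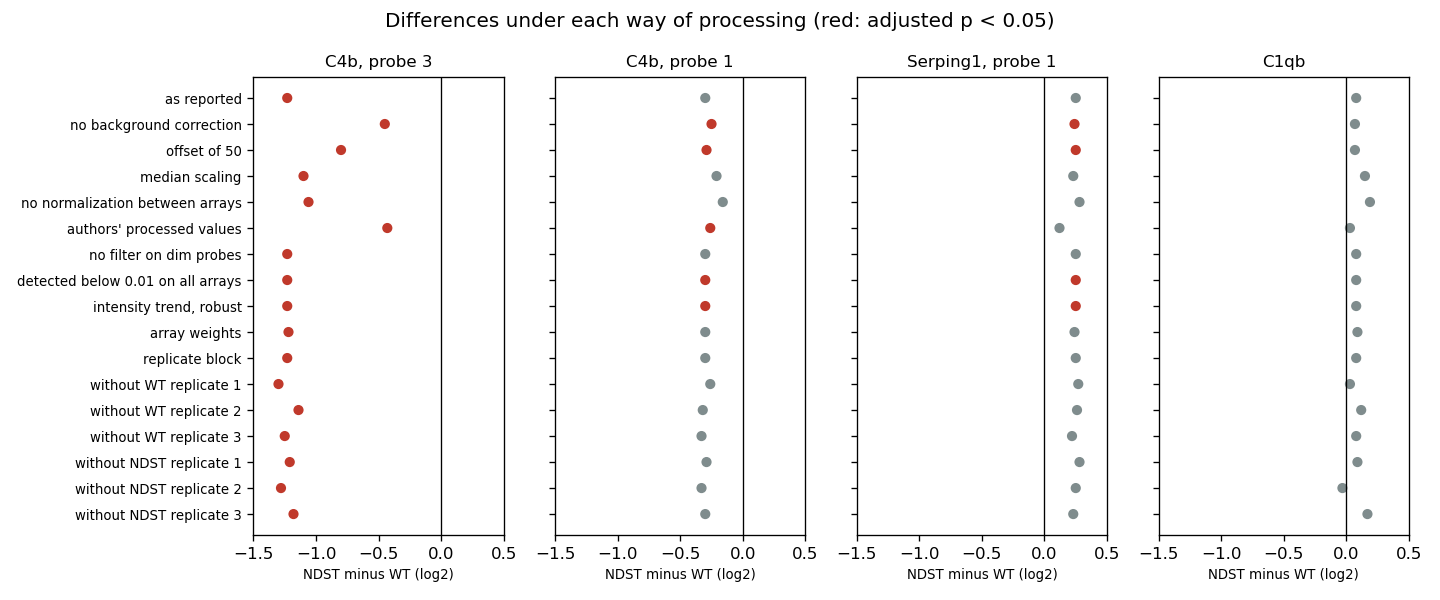
Difference, NDST minus WT, in log2 (horizontal axis) under each way of processing (rows) for the C4b probe that passed, the brightest C4b probe, Serping1 and C1qb. Red points have an adjusted p under 0.05. The C4b probe passed throughout, with sizes of -1.30 to -0.43, while the brightest C4b probe and Serping1 lay on either side of the threshold.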

How the data were processed

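Thoracic aorta RNA was read on Illumina bead arrays for mouse, with 3 arrays for NDST and 3 for WT. Labelling was with biotin, per the labels' protocols. The deposited non-normalized table gives an intensity per probe and array on a linear scale, not scaled between arrays, with a detection p-value beside it, per the file headers. The submitters' processing notes name GenomeStudio. A second deposited table holds the authors' processed intensities, whose scaling is not stated in those sources, and served as an alternative.

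In R 4.3.3, limma 3.58.1 was used for normexp background correction from the detection p-values (offset 16), quantile normalization and log2. Probes with a detection p under 0.05 on at least 3 of 6 arrays were kept, 17954 of 45281. Fold changes of dim probes may be understated by the offset and vary with the background correction, so their size is uncertain. The third C4b probe, at -1.23, stood at -0.80 with an offset of 50 and -0.45 without background correction. Per array 17549 to 18619 probes were detected, and the median SD within a genotype was 0.13 in log2. Genotypes were compared by a two-sided moderated test (lmFit, eBayes), adjusted over the kept probes by the Benjamini-Hochberg method. Each gene takes the kept probe that is brightest on average, which gave 10077 genes. A probe detected on no array of a genotype gets only a bound, set against the higher of its own value and the lowest detected value on each array.

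Probes were named from the platform annotation (34885 with 1 gene, 18 with several, 10378 with none listed). Genes named are the listed genes, all tested complement genes, genes among the 3 smallest p of a context or cell type list, and the 3 genes nearest to a listed gene's probe that passed. Of the endothelial, hepatocyte and neutrophil lists only some of these 3 are named. Of the heart muscle, airway, adipocyte and lymphocyte lists none is. C1rb, Acta2, Myh11 and the undetected or neighbouring genes were named beyond this rule, after values were seen. The genes and lists were chosen with earlier results of these data known. Steps were tested on simulated arrays. Ndst1 itself was not analysed here. Alternatives changed 1 step at a time, except that an intensity trend and a robust fit were set together: background correction, offset, scaling, table, filter, variance model, array weights, a replicate block, each array left out, and averaging the probes of each gene.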

Additional observations from a re-analysis of the deposited data

How the results depend on the processing

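Of 17 alternatives, those that moved the number of called probes from 1336 by over 1.5 times gave 3048 without background correction, 2190 with an offset of 50, 2711 without normalization between arrays, 3493 with the authors' processed values, 722 without a filter, 2017 with detection below 0.01 on all arrays, and 3086 with an intensity trend and a robust fit. Leaving out 1 array gave 360 to 557. The share of higher calls was 58.1%, but 82.9% with median scaling, 88.9% without normalization (where the median of all probes stood at 0.13) and 41.5% in the authors' values. Of the listed complement genes 0 were called, and 0 whichever array was left out (lowest 0, highest 0). The count was 2, C4b lower and Serping1 higher, without background correction, with an offset of 50, with detection below 0.01 on all arrays or with an intensity trend and a robust fit. It was 1, C4b, in the authors' values, when the probes of a gene were averaged, or with any tested probe of a gene, an alternative chosen after seeing the data. Of the other complement genes 4 were called, and 1 to 3 without 1 array. The 4 include Masp1, which entered the test only through the NDST arrays. With an NDST array left out the filter kept 18 of these genes and dropped Masp1, so part of that fall comes from the filter. The lone call without NDST replicate 3 was C4a. Same-numbered arrays of the 2 genotypes did not deviate together (correlations -0.0148, 0.0107 and 0.0197), so the numbers were not taken as pairs. With the replicate block 364 probes and 2 other complement genes were called: C4a, and Masp1 with the limit given above. The third C4b probe stayed at -1.23 there (limma adjusted p = 0.00639). The cause of these shifts was not tested. Signal over background limits C1ra and 7 of the 9 receptor genes, which gave no value. Of the 42 other complement genes with a named probe only 19 were tested, among them 3 of 8 lectin pathway genes and 5 of 11 regulators.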
